A study of Homo sapiens with 30 samples.

Results

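The genes described here are 10 regulators of the step by which a cell leaves G1 phase and begins to copy its DNA. They are the cyclin-dependent kinases CDK4 and CDK6, the D-type cyclins CCND1 and CCND3, the E-type cyclins CCNE1 and CCNE2, the transcription factors E2F1 and E2F2, and the kinase inhibitors CDKN1A (p21) and CDKN1B (p27). They were taken by name as 10 of the 60483 gene records in each RNA-seq library, each matched to its symbol through the Ensembl gene identifier. All 10 passed the filter on low counts and were among the 18424 genes tested.

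In G1 phase the D-type cyclins activate CDK4 and CDK6, which phosphorylate the retinoblastoma protein and so free E2F transcription factors. E2F1 and E2F2 then switch on genes of DNA synthesis together with the E-type cyclins, which activate CDK2 and carry the cell into S phase. p21 and p27 bind cyclin-kinase complexes and hold them back, and pancreatic cancers often lose CDKN2A, which encodes p16, the inhibitor of CDK4 and CDK6.

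The 30 libraries come from as many cultures of PANC-1, an established line of epithelial cells from a human pancreatic ductal adenocarcinoma, labelled wild type, with 3 cultures in each of 10 conditions. Hybrid tumoroids are 3D aggregates of these cells that hold DSLBs among them, oil droplets coated with a lipid bilayer that act as synthetic cells. In 7 conditions the DSLBs paired PD-1 with a further protein, which was TIGIT, LAG3, ICOS, CTLA4, CD40L, CD27 or CD2, in 1 they presented PD-1 alone, in 1 they were plain, carrying no protein, and in 1 there were no DSLBs (DSLB-free tumoroids). The comparison of each pair with PD-1 alone asks what a further immune protein adds to PD-1, and that with plain DSLBs asks what protein on the droplet does. All cultures were seeded in the same low-serum medium. The p-values rest on the spread between the 3 parallel cultures of a condition, estimated in 1 model over all 10 conditions. The proteins were recombinant ectodomains held on the droplets by a histidine tag, so no immune cell was present, and the model is 1 cell line. Per the study's methods ICOS also carried an Fc tag. PD-1 was loaded alone or blended with the further protein to a stated final protein density. The density of PD-1 itself may therefore differ between the pairs and PD-1 alone. All 8 protein conditions carried PD-1, so PD-1 and the presence of any protein cannot be told apart, and, as the labels give no dates or runs, any difference in handling between the 24 libraries with PD-1 and the 6 controls cannot be told apart from it.

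The summed expected counts lay between 21.9 M and 60.5 M per library (median 40.6 M), and the share of counts on mitochondrial genes between 1.71% and 7.001% in the libraries with PD-1 (median 4.58%), against 3.19% to 5.19% in the controls (median 4.80%). PD-1/LAG3 replicate 3, DSLB-free replicate 2, PD-1 replicate 1 and PD-1/CTLA4 replicate 2 stood apart from the other libraries of their groups in a chi-square comparison of counts. In PD-1/CD2 hybrids all 3 libraries differed from one another, at 28.3 to 37.0 per gene. For PD-1 replicate 1 it was 16.7 to 20.9, and between PD-1/TIGIT libraries 4.90 to 7.74. PD-1/CD40L replicate 3, at 15.3 to 24.4 against 6.43 for the other pair, was not among the 4 left out below. Summed over 7 epithelial markers the level was 5885 to 6649 TPM with PD-1 (TPM, RSEM's transcript abundance, which corrects for gene length and sums to the same total in every library), against 4610 to 5470 TPM in the controls, a sum carried by the keratins KRT8, KRT18 and KRT19. CDH1 lay the other way in every library, at 19.5 to 27.1 TPM with PD-1, against 33.5 to 49.2 TPM in the controls, as did the medians of EPCAM (54.7 TPM with PD-1, 69.8 TPM in the controls) and SOX9 (40.3 TPM with PD-1, 45.5 TPM in the controls). Of 6 leukocyte markers CD3E was at 0 in all 30 libraries and the sum of 23.7 to 52.3 TPM with PD-1, against 24.4 to 33.4 TPM in the controls, was nearly all CD68. COL1A1, which heads a list of 5 fibroblast markers, had 130.3 to 249.8 TPM with PD-1, against 299.6 to 402 TPM in the controls, while the other 4 stayed under 1 TPM in every library. The part of these markers in the results was not tested. CDKN2A had 2 counts over all 30 libraries and CDKN2B had 0, so the inhibitors of CDK4 and CDK6 encoded there were not detectable at this depth. Levels are otherwise given as CPM, the counts of a gene relative to the total of its library after TMM scaling, and genes are compared with one another only in TPM.

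The 8 conditions with PD-1 held less mRNA of CDK6, E2F1, E2F2 and the E-type cyclins than plain DSLB hybrids, while CDK4, both D-type cyclins and p27 passed the test in none of the 8 comparisons. CDK6, CCNE2, E2F1 and E2F2 fell in all 8, CCNE1 fell in 7, and p21 rose in PD-1/LAG3 and PD-1/TIGIT hybrids. The number called was 5 of 10 in every comparison but that of PD-1/LAG3, where it was 6. In bulk RNA fewer cells of a phase and less RNA per cell cannot be told apart. Over all genes tested the share called was 34.2% for PD-1/CTLA4, 30.3% for PD-1/LAG3, 29.6% for PD-1/CD2, 25.5% for PD-1/CD40L, 23.8% for PD-1/CD27, 22.5% for PD-1/TIGIT, 22.0% for PD-1 and 19.6% for PD-1/ICOS. A call is an adjusted p under 0.05 in edgeR's quasi-likelihood test (Benjamini-Hochberg over all 18424 genes, 1 model of all 30 libraries). The 8 comparisons share the 3 plain DSLB libraries, so they are not independent of one another. DESeq2 called 5 members in 6 of these comparisons and 6 in those of PD-1/LAG3 and, with CCND1, PD-1/TIGIT. Without the 4 libraries that stood apart the number was 6 for PD-1/CTLA4 and PD-1/LAG3 and 5 for the other 6.

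A single test of any difference among the 10 conditions called 7 of the 10 genes, against 41.0% of all genes tested. The adjusted p was 1.63e-10 for E2F2, 5.83e-10 for CDK6, 2.00e-09 for E2F1, 5.45e-07 for CCNE2, 1.43e-05 for CCNE1, 0.00321 for CDKN1A and 0.0412 for CDK4 (edgeR). CCND3, CDKN1B and CCND1 did not pass, with adjusted p of 0.0874, 0.0845 and 0.143, while DESeq2's likelihood ratio test called all 10. The 41.0% is edgeR's share of all genes, and that of DESeq2's test is not reported here, so its count has no background beside it. For CDK6, CCNE1, CCNE2, E2F1 and E2F2 each of the 24 libraries with PD-1 lay below each of the 6 control libraries, in CPM and in TPM. Among all genes tested 5.11% lay below in this way in CPM and 4.43% lay above.

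**Figure D1:**
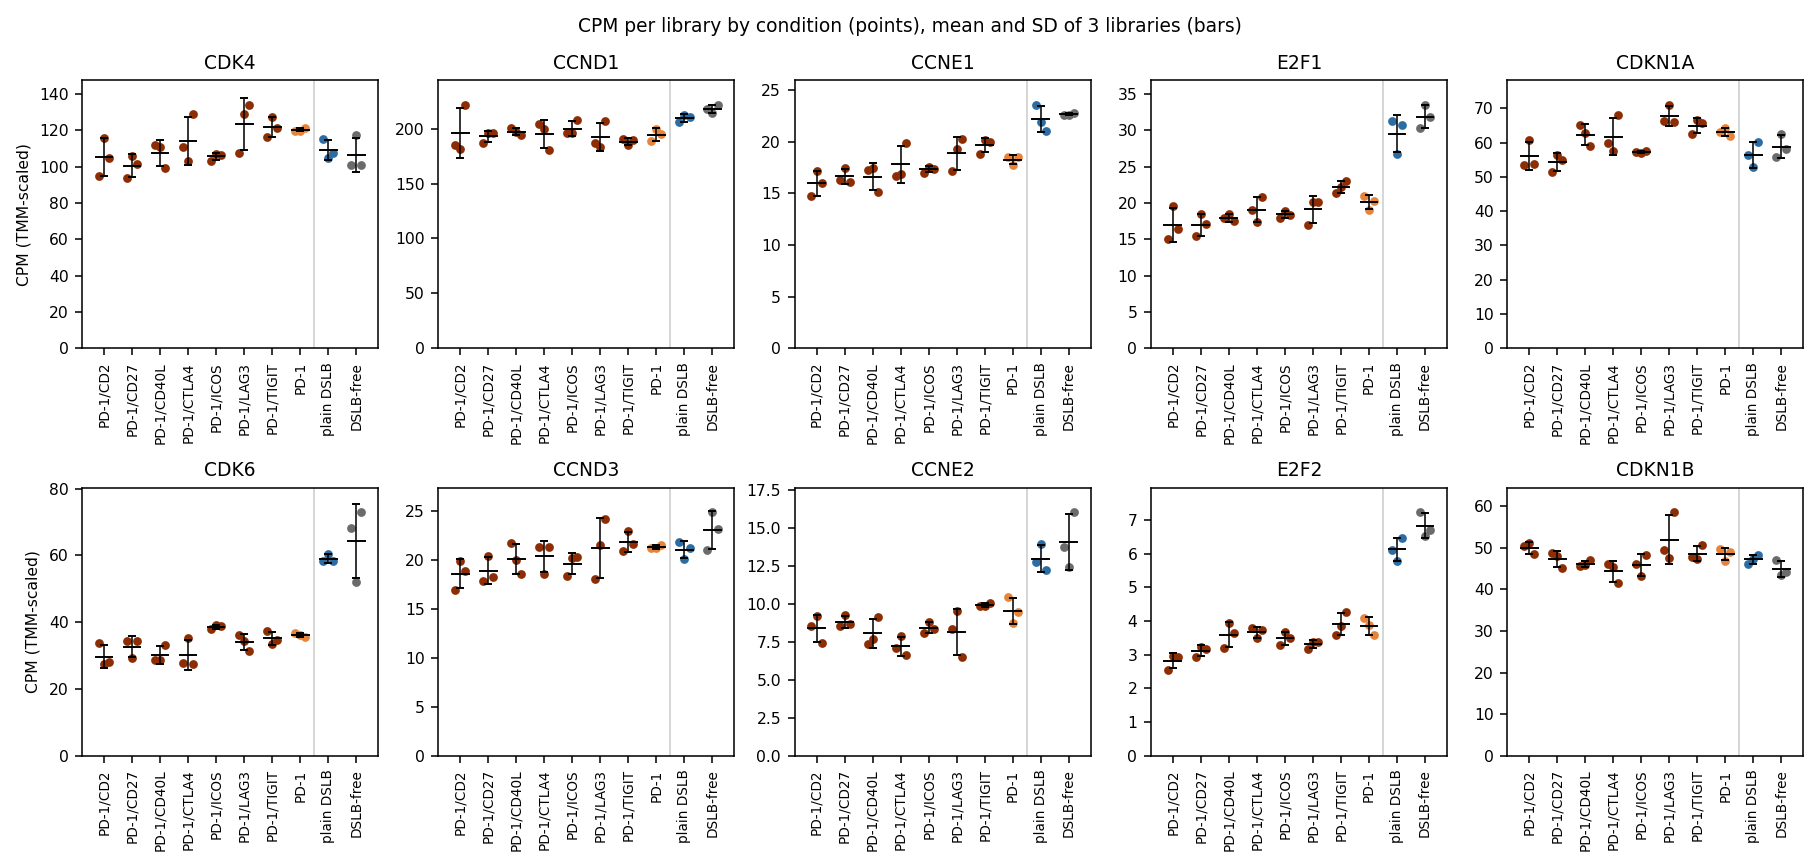
CPM (TMM-scaled, linear axes from 0) of each gene in the 30 libraries by condition, with points for libraries and bars for the mean and SD of 3; a grey line parts the 8 conditions with PD-1 from plain DSLB hybrids and DSLB-free tumoroids. In the CDK6, CCNE1, CCNE2, E2F1 and E2F2 panels all 24 points left of the line lie below the 6 to its right, and in the CDK4, CCND3, CDKN1A and CDKN1B panels they overlap.

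CDK6, 1 of the 2 kinases that D-type cyclins activate, fell in all 8 comparisons with plain DSLB. In CPM it had 33.7, 27.3 and 28.1 in PD-1/CD2, 34.5, 29.2 and 34.5 in PD-1/CD27, 28.6, 28.5 and 33.1 in PD-1/CD40L and 27.6, 35.2 and 27.5 in PD-1/CTLA4 hybrids. It had 37.96, 39.1 and 38.97 in PD-1/ICOS, 36.3, 34.4 and 31.4 in PD-1/LAG3, 37.3, 33.4 and 34.8 in PD-1/TIGIT hybrids and 36.8, 36.3 and 35.6 in PD-1 hybrids. Plain DSLB hybrids had 58.2, 60.6 and 58.3 CPM and DSLB-free tumoroids 68.1, 51.95 and 73.01 CPM. The 24 libraries with PD-1 spanned 27.3 to 39.1 CPM (median 34.4), against 51.95 to 73.01 CPM in the 6 controls (median 59.4), with no overlap. Over plain DSLB its log2 fold change was lowest in PD-1/CD2 hybrids at -0.99 (SE 0.105, edgeR adjusted p = 8.34e-08) and nearest 0 in PD-1/ICOS hybrids at -0.61 (SE 0.104, adjusted p = 9.92e-05). The 3 PD-1/ICOS libraries lay above the 3 PD-1 libraries and below all plain DSLB libraries. Here and below, a gap between the 3 libraries of 1 condition and those of another is a description. The share of all genes with such a gap was not counted. From PD-1 hybrids down to PD-1/CD2 hybrids every neighbour in the order of CDK6 means overlapped the next.

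CDK4, which shares its cyclins and its substrate with CDK6, passed in none of the 8 comparisons. PD-1/LAG3 hybrids had 107, 129 and 134 CPM, PD-1/TIGIT hybrids 116, 127 and 121 CPM, PD-1 hybrids 119.8, 119.8 and 121 CPM and PD-1/CD27 hybrids 93.9, 106 and 102 CPM, against 115, 105 and 107 CPM in plain DSLB hybrids. Over plain DSLB the log2 fold change of CDK4 was -0.12 to 0.18 with adjusted p of 0.117 to 0.892 (edgeR). Its sign depended on the scale, since the median of the 24 libraries with PD-1 over that of the 6 controls was 1.05 in CPM and 0.911 in TPM, where CDK6 was at 0.5795 and 0.456. On the log2(TPM + 1) scale the median of all genes tested shifted by -0.11 in PD-1/CTLA4 and PD-1/LAG3 hybrids against plain DSLB, and by less in the other 6 comparisons.

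CDK4 was the dominant kinase of the pair in TPM, at 156 ± 19.3 TPM against 10.2 ± 0.205 TPM for CDK6 in plain DSLB hybrids (SD, n = 3). CDK6 made up 2.62% ± 0.675 of their summed TPM in PD-1/CD2 hybrids, 2.78% ± 0.3099 in PD-1/CD40L hybrids, 3.48% ± 0.272 in PD-1 hybrids and 4.29% ± 0.253 in PD-1/ICOS hybrids, against 6.19% ± 0.651 in plain DSLB hybrids and 6.27% ± 1.25 in DSLB-free tumoroids (SD, n = 3 each). The sum itself was 153 ± 8.54 TPM in PD-1 hybrids and 167 ± 19.4 TPM in plain DSLB hybrids. CDK6 is also by far the longer transcript, with a median effective length of 10142 bases with PD-1 and 9160 bases in the controls, against 1118 and 1075 bases for CDK4.

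CCND1, the D-type cyclin induced by growth factor signalling, was the most abundant cyclin of the set, at 97.5 ± 3.28 TPM in plain DSLB hybrids, where CCND3 had 18.9 ± 1.16 TPM (SD, n = 3). CCND1 spanned 181 to 222 CPM in the 24 libraries with PD-1 (median 196), against 206, 213 and 211 CPM in plain DSLB hybrids and 218, 214 and 222 CPM in DSLB-free tumoroids. Of the 24 libraries 21 lay below all 6 controls, and 1, PD-1/CD2 replicate 3, lay just above them. The log2 fold change over plain DSLB was below 0 in all 8 comparisons, at -0.16 to -0.07 (SE 0.0638 to 0.064), and passed the test in none (edgeR adjusted p 0.0791 to 0.51). Set against DSLB-free tumoroids, a comparison chosen after seeing the data, it fell in 3 of 8, PD-1/CD27, PD-1/LAG3 and PD-1/TIGIT, with log2 fold changes of -0.21 to -0.12 over the 8 (edgeR). The share of all genes called in those 3 is not reported here. For PD-1 hybrids this control called 4862 of 18424 genes, against 4054 with plain DSLB.

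CCND3, a second D-type cyclin, had 17.01, 19.9 and 18.9 CPM in PD-1/CD2 hybrids and 20.9, 23 and 21.7 CPM in PD-1/TIGIT hybrids, its lowest and highest means with PD-1, against 21.8, 20.2 and 21.3 CPM in plain DSLB hybrids. Every neighbour in its order of 10 means overlapped the next. The log2 fold change over plain DSLB was -0.18 to 0.05 and passed in none of 8 (edgeR adjusted p 0.1398 to 0.917). Against DSLB-free tumoroids CCND3 fell in PD-1/CD2 and PD-1/CD27 hybrids, with log2 fold changes of -0.31 to -0.08 over the 8. The share of all genes called in those comparisons is not reported here either. The share of CCND3 in the summed TPM of both genes was 17.7% ± 1.83 in PD-1/TIGIT hybrids, 15.4% ± 0.4303 in PD-1/ICOS hybrids and 16.2% ± 1.08 in plain DSLB hybrids (SD, n = 3 each). The PD-1/TIGIT and PD-1/ICOS libraries did not overlap in this share, both overlapped those of plain DSLB, and no test was run on it.

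Both E-type cyclins, the CDK2 partners that E2F factors induce, fell, with the log2 fold change of CCNE2 further below 0 than that of CCNE1 in each of the 8 comparisons, a difference between genes that was not tested. In CPM, CCNE2 had 8.52, 9.2 and 7.44 in PD-1/CD2, 8.53, 9.28 and 8.67 in PD-1/CD27, 7.35, 7.68 and 9.13 in PD-1/CD40L and 7.07, 7.85 and 6.64 in PD-1/CTLA4 hybrids. It had 8.099, 8.82 and 8.34 in PD-1/ICOS, 8.32, 9.55 and 6.52 in PD-1/LAG3, 9.87, 9.86 and 10.1 in PD-1/TIGIT hybrids and 10.4, 8.72 and 9.45 in PD-1 hybrids. Plain DSLB hybrids had 12.8, 13.9 and 12.2 CPM and DSLB-free tumoroids 13.7, 12.4 and 16.04 CPM, all above the 24 libraries with PD-1. Set against plain DSLB the log2 fold change was -0.85 in PD-1/CTLA4 hybrids (SE 0.117, edgeR adjusted p = 3.85e-06) and -0.39 in PD-1/TIGIT hybrids (SE 0.115, adjusted p = 0.0154), the ends of its range. The PD-1/TIGIT call did not hold without plain DSLB replicate 2, where the log2 fold change was -0.33, nor without PD-1/TIGIT replicate 2, where it was -0.37.

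CCNE1 spanned 14.8 to 20.2 CPM with PD-1 (median 17.4), against 23.6, 21.9 and 21.05 CPM in plain DSLB hybrids and 22.6, 22.6 and 22.8 CPM in DSLB-free tumoroids. Its libraries nearest the controls were those of PD-1/LAG3 at 17.1, 19.3 and 20.2 CPM and PD-1/TIGIT at 18.8, 20.2 and 19.98 CPM, and its lowest those of PD-1/CD2 at 14.8, 17.2 and 15.98 CPM. The log2 fold change over plain DSLB was -0.47 in PD-1/CD2 hybrids (SE 0.0762, edgeR adjusted p = 3.41e-05) and -0.23 in PD-1/LAG3 hybrids (adjusted p = 0.0205), and in PD-1/TIGIT hybrids it was -0.18 and did not pass (adjusted p = 0.0952). Without plain DSLB replicate 1 the calls in PD-1 and PD-1/LAG3 hybrids were lost (log2 fold changes -0.23 and -0.18), as was the PD-1/LAG3 call without PD-1/LAG3 replicate 1 (-0.17), with edgeR on the 6 libraries compared (-0.23) and without a filter on low counts (-0.21). CCNE2 made up 24.8% ± 5.39 of the summed TPM of both cyclins in PD-1/CTLA4 hybrids and 30.9% ± 0.737 in PD-1/CD27 hybrids, against 32.8% ± 1.99 in plain DSLB hybrids (SD, n = 3 each).

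E2F1 and E2F2, activators of S phase genes and targets of E2F themselves, fell in all 8 comparisons with plain DSLB, with the log2 fold change of E2F2 further below 0 in each. In CPM, E2F2 had 2.56, 2.96 and 2.95 in PD-1/CD2, 2.93, 3.23 and 3.18 in PD-1/CD27, 3.19, 3.94 and 3.66 in PD-1/CD40L and 3.78, 3.48 and 3.73 in PD-1/CTLA4 hybrids. It had 3.302, 3.68 and 3.49 in PD-1/ICOS, 3.18, 3.39 and 3.39 in PD-1/LAG3, 3.602, 3.86 and 4.28 in PD-1/TIGIT hybrids and 4.1, 3.88 and 3.59 in PD-1 hybrids. Plain DSLB hybrids had 6.12, 5.79 and 6.48 CPM and DSLB-free tumoroids 7.24, 6.52 and 6.72 CPM, and the 2 control groups did not overlap each other. E2F2 had a log2 fold change over plain DSLB of -1.12 in PD-1/CD2 hybrids (SE 0.103, edgeR adjusted p = 7.64e-09), -0.98 in PD-1/CD27 hybrids (SE 0.103, adjusted p = 7.25e-08) and -0.64 in PD-1/TIGIT hybrids (SE 0.101, adjusted p = 3.84e-05), the nearest to 0. E2F2 was the least abundant of the 10 genes, with 79 to 380 expected counts per library.

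In CPM, E2F1 had 15.1, 19.5 and 16.4 in PD-1/CD2, 15.5, 18.5 and 17.1 in PD-1/CD27, 17.96, 18.5 and 17.5 in PD-1/CD40L and 19.1, 17.4 and 20.8 in PD-1/CTLA4 hybrids. It had 18.01, 18.95 and 18.3 in PD-1/ICOS, 16.98, 20.2 and 20.2 in PD-1/LAG3, 21.4, 22.2 and 23.01 in PD-1/TIGIT hybrids and 21.02, 19.1 and 20.3 in PD-1 hybrids. Plain DSLB hybrids had 31.3, 26.7 and 30.7 CPM and DSLB-free tumoroids 30.3, 33.6 and 31.8 CPM, above every library with PD-1. Relative to plain DSLB the log2 fold change was -0.80 in PD-1/CD27 hybrids (SE 0.0903, edgeR adjusted p = 2.43e-07) and -0.41 in PD-1/TIGIT hybrids (SE 0.0887, adjusted p = 0.00134). The 3 PD-1/TIGIT libraries lay above the 3 PD-1 libraries and below all plain DSLB libraries, and from PD-1 hybrids downwards the neighbouring conditions overlapped. In TPM, E2F1 stood at 11.8 ± 0.416 and E2F2 at 1.08 ± 0.0586 in PD-1 hybrids, against 19.1 ± 1.63 and 1.92 ± 0.0513 in plain DSLB hybrids (SD, n = 3 each). E2F2 made up 7.37% ± 0.606 of the summed TPM of both in PD-1/CD2 hybrids, against 9.21% ± 0.756 in plain DSLB hybrids.

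The promoters of E2F1 and E2F2 are shown with that of CCNE1 because E2F factors are known to act at all 3 genes, of which E2F1 and E2F2 fell in 8 comparisons with plain DSLB and CCNE1 in 7. Each is the RefSeq window of GRCh38.p14 from 250 bases before to 50 bases after the gene's start, 5′ to 3′ on the gene's strand. Capitals mark matches on either strand to TTTNNCGC, a loose pattern for the E2F motif in which N is any base. The windows are chr20:33686336-33686635 (minus strand) for E2F1, chr1:23531184-23531483 (minus strand) for E2F2 and chr19:29811741-29812040 (plus strand) for CCNE1.
E2F1: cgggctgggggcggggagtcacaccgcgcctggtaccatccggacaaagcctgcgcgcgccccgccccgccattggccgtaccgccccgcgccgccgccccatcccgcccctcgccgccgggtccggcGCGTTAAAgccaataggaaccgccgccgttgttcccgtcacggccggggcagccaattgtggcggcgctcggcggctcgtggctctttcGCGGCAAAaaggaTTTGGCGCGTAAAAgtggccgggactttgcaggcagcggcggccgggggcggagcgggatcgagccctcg
E2F2: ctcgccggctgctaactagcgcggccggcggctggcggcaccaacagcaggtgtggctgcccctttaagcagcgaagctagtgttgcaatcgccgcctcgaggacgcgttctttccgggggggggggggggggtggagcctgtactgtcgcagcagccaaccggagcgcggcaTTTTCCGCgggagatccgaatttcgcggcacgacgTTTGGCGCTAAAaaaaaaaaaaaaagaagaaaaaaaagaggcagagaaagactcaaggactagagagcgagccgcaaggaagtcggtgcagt
CCNE1: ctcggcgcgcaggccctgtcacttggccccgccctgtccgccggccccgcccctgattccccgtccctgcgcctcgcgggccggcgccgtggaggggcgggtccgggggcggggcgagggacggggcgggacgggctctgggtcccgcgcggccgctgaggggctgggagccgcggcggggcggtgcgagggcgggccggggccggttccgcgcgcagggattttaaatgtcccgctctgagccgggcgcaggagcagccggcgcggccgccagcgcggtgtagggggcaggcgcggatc

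E2F1 held 4 matches, whose first bases lay at -122, -33, -20 and -14 from the start, and E2F2 held 3, at -77, -42 and -38. Of these, only the matches at -33 and -20 in E2F1 and at -42 in E2F2 had G or C at both N positions. The matches at -20 and -14 in E2F1 overlapped, as did those at -42 and -38 in E2F2, and both genes carried the letters TTTGGCGC. Over all 35116 RefSeq promoter windows of this length 6.89% held at least 1 match. The table gave 11 windows for 8 of the 10 genes, and those of CDK4, CDK6, CCND3, CCNE1, CDKN1A and CDKN1B held none, which says only that these letters are not in them. The NF-Y motif CCAAT, present in 34.6% of all windows, was found 3 times in E2F1 and not in E2F2 or CCNE1. The SP1 motif GGGCGG, present in 44.95%, was found 6 times in E2F1 and 7 times in CCNE1 and not in E2F2, and TTTGAA, the CHR element of cell cycle genes present in 15.2%, was in none of the 3. No match of these motifs overlapped an E2F match. A match is a description of letters and not of binding.

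CDKN1A, the inhibitor p21 and a target of p53, rose in 2 of the 8 comparisons with plain DSLB. PD-1/LAG3 hybrids had 66.3, 71.1 and 65.9 CPM, PD-1/TIGIT hybrids 62.3, 66.5 and 65.7 CPM and PD-1 hybrids 63.2, 64.2 and 61.8 CPM, against 56.3, 52.8 and 60.2 CPM in plain DSLB hybrids and 55.8, 62.6 and 58.2 CPM in DSLB-free tumoroids. The log2 fold change was 0.26 in PD-1/LAG3 hybrids (SE 0.0672, edgeR adjusted p = 0.00396) and 0.20 in PD-1/TIGIT hybrids (SE 0.0674, adjusted p = 0.0311). PD-1/CD2 hybrids with 53.5, 60.7 and 53.7 CPM and PD-1/CD27 hybrids with 51.3, 56.4 and 54.8 CPM had the lowest means, at log2 fold changes of -0.01 and -0.06, and did not pass. Neither call held on log2(TPM + 1), where the change was 0.10 in PD-1/LAG3 hybrids and 0.12 in PD-1/TIGIT hybrids. The PD-1/TIGIT call was also lost, among other settings, without plain DSLB replicate 1 (0.21), plain DSLB replicate 2 (0.16), PD-1/TIGIT replicate 2 (0.19) or PD-1/TIGIT replicate 3 (0.19) and against DSLB-free tumoroids (0.14).

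CDKN1B, the inhibitor p27, which is controlled largely through its protein's turnover, passed in none of the 8 comparisons with plain DSLB (log2 fold change -0.09 to 0.14, edgeR adjusted p 0.117 to 0.975). Its lowest library with PD-1 had 41.5 CPM, in PD-1/CTLA4 hybrids, and its highest 58.6 CPM, in PD-1/LAG3 replicate 3, against 46.1, 47.2 and 48.3 CPM in plain DSLB hybrids. As for CDK4 and CDKN1A, the ratio of the median with PD-1 to that of the controls lay above 1 in CPM (1.02, and 1.07 for CDKN1A) and below 1 in TPM (0.878, and 0.939 for CDKN1A). In TPM, 22 of the 24 libraries with PD-1 lay below all 6 controls for CDKN1B. In the order of the 10 CPM means every neighbour overlapped the next for CDK4, CCND3, CDKN1A and CDKN1B.

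**Figure D2:**
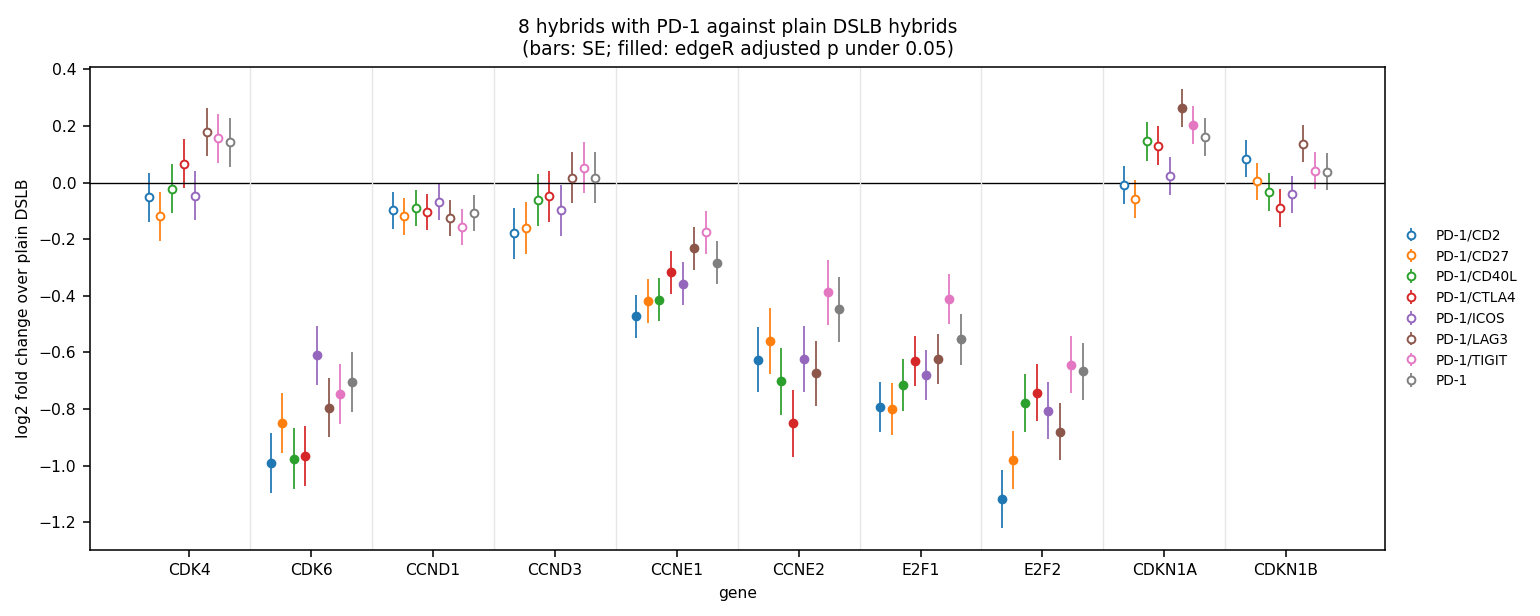
Log2 fold change over plain DSLB hybrids (vertical axis, edgeR) of each gene (horizontal axis) in the 8 conditions with PD-1, 1 colour each, with bars for the SE and filled points for an adjusted p under 0.05. CDK6, CCNE2, E2F1 and E2F2 lie below 0 with all points filled, the PD-1/TIGIT point of CCNE1 is open, and the filled points above 0 are those of CDKN1A in PD-1/LAG3 and PD-1/TIGIT hybrids.

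The comparison of plain droplets with no droplets asks what the DSLBs do without protein. Between plain DSLB hybrids and DSLB-free tumoroids 0 of the 10 genes were called by edgeR, 0 had an unadjusted p under 0.05, and DESeq2 and limma-voom called 0, against 0.0109% of all genes tested. The log2 fold changes were -0.12 (SE 0.103) for CDK6, -0.16 (SE 0.0971) for E2F2, -0.11 (SE 0.0873) for E2F1, -0.11 (SE 0.112) for CCNE2 and -0.03 (SE 0.0747) for CCNE1. With DSLB-free tumoroids in place of plain DSLB hybrids, CDK6, CCNE1, CCNE2, E2F1 and E2F2 fell in all 8 comparisons. Their log2 fold changes were -1.11 to -0.73, -0.50 to -0.20, -0.97 to -0.50, -0.91 to -0.52 and -1.27 to -0.80 in that order of genes. With this control 4862 of 18424 genes were called for PD-1 hybrids, against 4054 with plain DSLB hybrids. The shares of all genes for the other conditions with PD-1 are not reported here.

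Against PD-1 alone, 1 gene passed in 1 comparison. E2F2 fell in PD-1/CD2 hybrids, which had 2.56, 2.96 and 2.95 CPM, against 4.1, 3.88 and 3.59 CPM in PD-1 hybrids, with no overlap. The log2 fold change was -0.45 (SE 0.104, edgeR adjusted p = 0.0275), where 1.23% of all genes tested were called. The call depended on the libraries included. It was lost without replicate 1 of PD-1/CD2 (log2 fold change -0.39) or replicate 3 of PD-1/CD2 (-0.48). The same held without replicate 1 (-0.39) or replicate 2 of PD-1 (-0.44). In these runs 541, 10, 5 and 14 of all genes were called in that order, against 227 in the main fit. The E2F2 call was also lost with edgeR on the 6 libraries alone (-0.45), without a filter on low counts (-0.44) and on log2(TPM + 1) (-0.21). It did not hold without the 4 libraries that stood apart (-0.41) or with a trend on gene length removed (-0.38), the latter a setting chosen after seeing the data. Over all alternatives its adjusted p ran from 0.0244 to 0.368.

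The other 6 comparisons with PD-1 called 0 of the 10 genes with edgeR, where 2.29% of all genes were called for PD-1/CD27, 0.0109% for PD-1/CD40L, 0.0434% for PD-1/CTLA4 and 0% for PD-1/ICOS, PD-1/LAG3 and PD-1/TIGIT. The PD-1/CTLA4 background depended on the libraries, since the 8 genes called became 75 without PD-1/CTLA4 replicate 2 and 1198 of 18573 without the 4 libraries that stood apart, where CDK6 and CCNE2 were among them. At an unadjusted p under 0.05 the number of the 10 genes was 7 for PD-1/CD2, 4 for PD-1/CD27, 2 each for PD-1/CD40L, PD-1/CTLA4 and PD-1/ICOS, 1 for PD-1/LAG3 and 0 for PD-1/TIGIT. Over all genes that number was 3134 for PD-1/CD27, 2833 for PD-1/CD2, 2445 for PD-1/CTLA4, 2091 for PD-1/CD40L, 1880 for PD-1/ICOS, 1052 for PD-1/LAG3 and 681 for PD-1/TIGIT. DESeq2 called 1 gene for PD-1/CD2 and 1 for PD-1/CD27, there CDKN1A, and limma-voom called 1 for PD-1/CD2 and 0 for the other 6. These comparisons share the 3 PD-1 libraries.

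PD-1/CD27 hybrids came nearest to a call after that, with CDKN1A at -0.22 (SE 0.0673, edgeR adjusted p = 0.0753) and CDK4 at -0.26 (SE 0.0859, edgeR adjusted p = 0.0998). CDK4 had 93.9, 106 and 102 CPM in PD-1/CD27 hybrids, against 119.8, 119.8 and 121 CPM in PD-1 hybrids, whose 3 libraries lay close together and above them. CDK6 was at -0.29 (SE 0.105, edgeR adjusted p = 0.173) in PD-1/CD2 hybrids and at 0.09 (SE 0.104, edgeR adjusted p = 0.796) in PD-1/ICOS hybrids. CCNE2 in PD-1/CTLA4 hybrids was at -0.40 (SE 0.117, edgeR adjusted p = 0.186), with 7.07, 7.85 and 6.64 CPM, against 10.4, 8.72 and 9.45 CPM in PD-1 hybrids. PD-1/TIGIT hybrids had E2F1 at 0.14 (SE 0.0891, edgeR adjusted p = 1). Its 3 libraries there did not overlap those of PD-1, but the share of all genes separated in this way was not counted. CCND1 moved least, at log2 fold changes of -0.05 to 0.04 over the 7 comparisons.

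**Figure D3:**
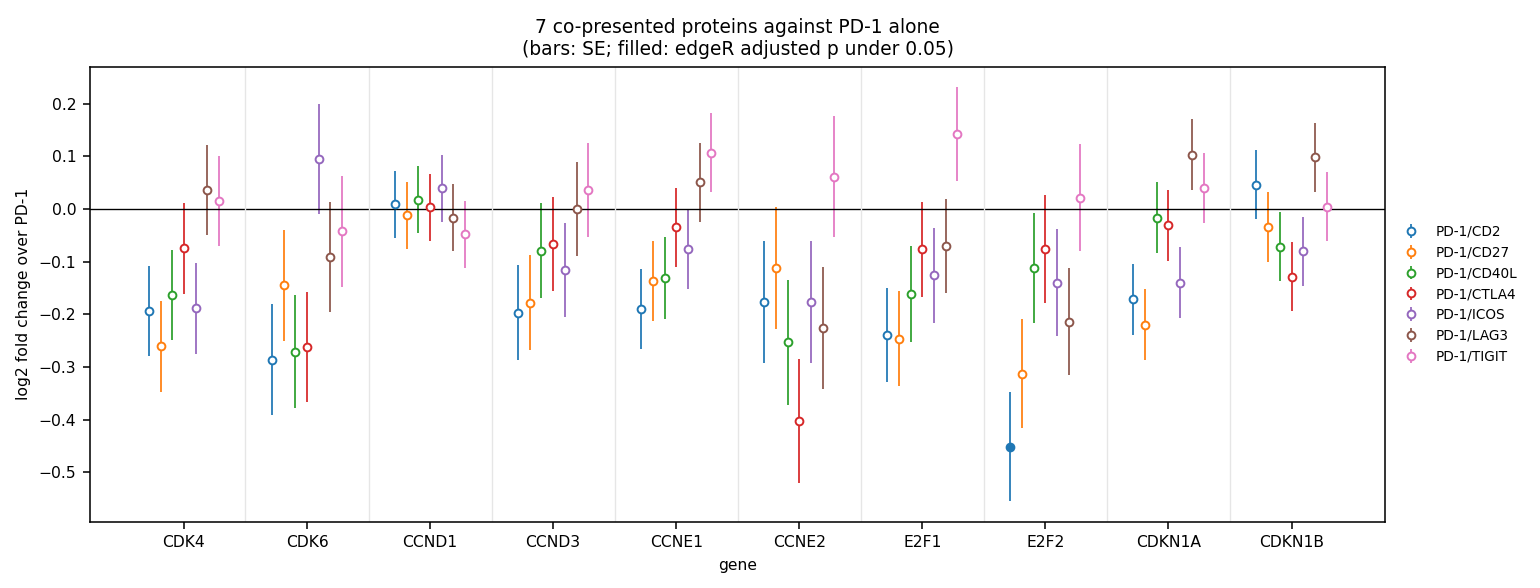
Log2 fold change over PD-1 hybrids (vertical axis, edgeR) of each gene (horizontal axis) in the 7 conditions with a further protein, 1 colour each, with bars for the SE and filled points for an adjusted p under 0.05. The single filled point is E2F2 in PD-1/CD2 hybrids.

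Of 29 other genes of the same machinery 27 were tested, and against plain DSLB 1 to 4 rose and 8 to 13 fell in each comparison, with list medians between -0.18 and -0.02, while the median over all genes tested lay between -0.00 and 0.03. The share of the 27 called was 37.0% to 55.6%, where 19.6% to 34.2% of all genes were called. CDC25A, the phosphatase that activates CDK2, CDK2 itself, SKP2, the F-box protein that targets p27, TFDP1, the DNA-binding partner of E2F, and RBL1 (p107) fell in all 8 comparisons, as did the repressors E2F7 and E2F8 and the CDK-binding protein CABLES1. Their log2 fold changes were -0.84 to -0.51 for CDC25A, -0.45 to -0.26 for CDK2, -0.46 to -0.25 for SKP2, -0.36 to -0.20 for TFDP1 and -0.67 to -0.49 for RBL1. CCNA2, the S phase cyclin, fell in 7, and CDK7, the kinase that activates other CDKs, rose in 7. RB1 fell in 1 of the 8 (log2 fold change -0.31 to -0.04 over all), and E2F4, E2F5 and RBL2 were called in none.

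CCND2, the third D-type cyclin, rose in all 8 comparisons, at log2 fold changes of 0.82 to 1.51. It spanned 0.613 to 1.81 CPM with PD-1 (median 1.08), against 0.424 to 0.542 CPM in the controls (median 0.481), with no overlap. These rest on 23 to 75 expected counts per library with PD-1, against 14 to 31 in the controls. In TPM the ratio of the medians was 1.15 rather than the 2.24 of CPM, and the effective length estimated for CCND2 ran from 1936 to 6408 bases over the libraries. At 0.14 to 0.55 TPM with PD-1 and 0.1 to 0.43 TPM in the controls, ranges that overlap, it was the least abundant of the D-type cyclins.

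Genes of DNA replication that E2F factors are known to induce were mostly lower with PD-1 as well. Of 20 such genes 9 to 16 fell in each comparison with plain DSLB and 0 or 1 rose, with list medians between -0.42 and -0.21. The share of the 20 called was 50% to 80%, where 19.6% to 34.2% of all genes were called. GINS2 (-0.97 to -0.55), CDC6 (-0.80 to -0.47), UHRF1 (-0.83 to -0.57), CHAF1A (-0.62 to -0.40), MCM2 (-0.62 to -0.23), MCM3, MCM6, POLA1 and RRM1 fell in all 8, whereas SLBP was called in none. MCM5 rose in PD-1/TIGIT hybrids, though its ratio of medians was 1.1 in CPM and 0.977 in TPM. The fewest of the 20, 9, fell in PD-1/TIGIT hybrids. Against PD-1 alone 1 of the 20 fell in PD-1/CD2 hybrids and 1 in PD-1/CD27 hybrids, MCM2 each time, at log2 fold changes of -0.38 (SE 0.0692, edgeR adjusted p = 0.0111) and -0.28 (SE 0.0692, adjusted p = 0.0283). That is 5% of the list each time, where 1.23% of all genes were called for PD-1/CD2 and 2.29% for PD-1/CD27.

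Of 12 mitotic genes 3 to 11 fell in each comparison with plain DSLB and 0 rose in any, with list medians between -0.55 and -0.17. The share of the 12 called was 25% to 91.7%, and in PD-1/TIGIT hybrids it was 25% against 22.5% of all genes. MKI67, the proliferation marker Ki-67, had 56.3 to 122.6 CPM with PD-1, against 157 to 224 CPM in the controls, and fell in all 8 with CENPF and TOP2A (log2 fold changes -1.33 to -0.87, -0.93 to -0.66 and -0.88 to -0.54 in that order). The smallest number, 3, was again in PD-1/TIGIT hybrids and the largest, 11, in PD-1/ICOS hybrids. Beside p21, 13 further targets of p53 gave 3 that rose in every comparison, the stress sensor SESN2 (0.79 to 1.03), GADD45A (0.37 to 0.69) and the BH3-only gene BBC3 (0.31 to 0.51), and 1 to 3 that fell, among them ZMAT3 in all 8 (-0.50 to -0.28) and MDM2 in 3. The share of these 13 called was 30.8% to 46.2% over the 8 comparisons, where 19.6% to 34.2% of all genes were called, and in PD-1/LAG3 hybrids it was 30.8% against 30.3%. PANC-1 is known to carry a mutant p53. Of 9 FOXO and growth factor regulators of cyclin D and p27, FOXO3 rose in all 8 (0.20 to 0.41), CTNNB1 fell in 4 and FOSL1 in 1, while JUN, ETS1, ETS2, EGR1, FOXO1 and TCF7L2 were called in none. This list had 11.1% to 22.2% of its genes called, below the share of all genes in each of the 8 comparisons. Between plain DSLB hybrids and DSLB-free tumoroids edgeR called 0 of the 81 genes of these 5 lists, and 3 had an unadjusted p under 0.05.

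By level, the most abundant genes of the G1 to S list were CKS1B (175 ± 18.4 TPM with PD-1, 188 ± 3.62 TPM in the controls) and CCNI (82.3 ± 5.68 TPM with PD-1, 81.02 ± 4.52 TPM in the controls), given here and below as mean ± SD over 24 libraries with PD-1 and 6 controls. Those of the replication list were PCNA (88.3 ± 7.71 TPM with PD-1, 113 ± 5.83 TPM in the controls) and MCM7 (84.9 ± 4.87 TPM with PD-1, 111 ± 5.61 TPM in the controls), and those of the mitotic list CCNB1 (77.5 ± 9.85 TPM with PD-1, 107 ± 8.999 TPM in the controls) and TOP2A (62.9 ± 6.83 TPM with PD-1, 106 ± 10.3 TPM in the controls). These levels were above those of E2F1 and E2F2 in TPM. For p53 targets they were BAX (61.5 ± 5.15 TPM with PD-1, 66.98 ± 8.68 TPM in the controls) and GADD45A (48.6 ± 3.97 TPM with PD-1, 39.3 ± 3.13 TPM in the controls), and for the FOXO and growth factor list CTNNB1 (126 ± 11.9 TPM with PD-1, 156 ± 4.23 TPM in the controls) and ETS2 (58.4 ± 4.74 TPM with PD-1, 58.7 ± 4.91 TPM in the controls).

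**Figure D4:**
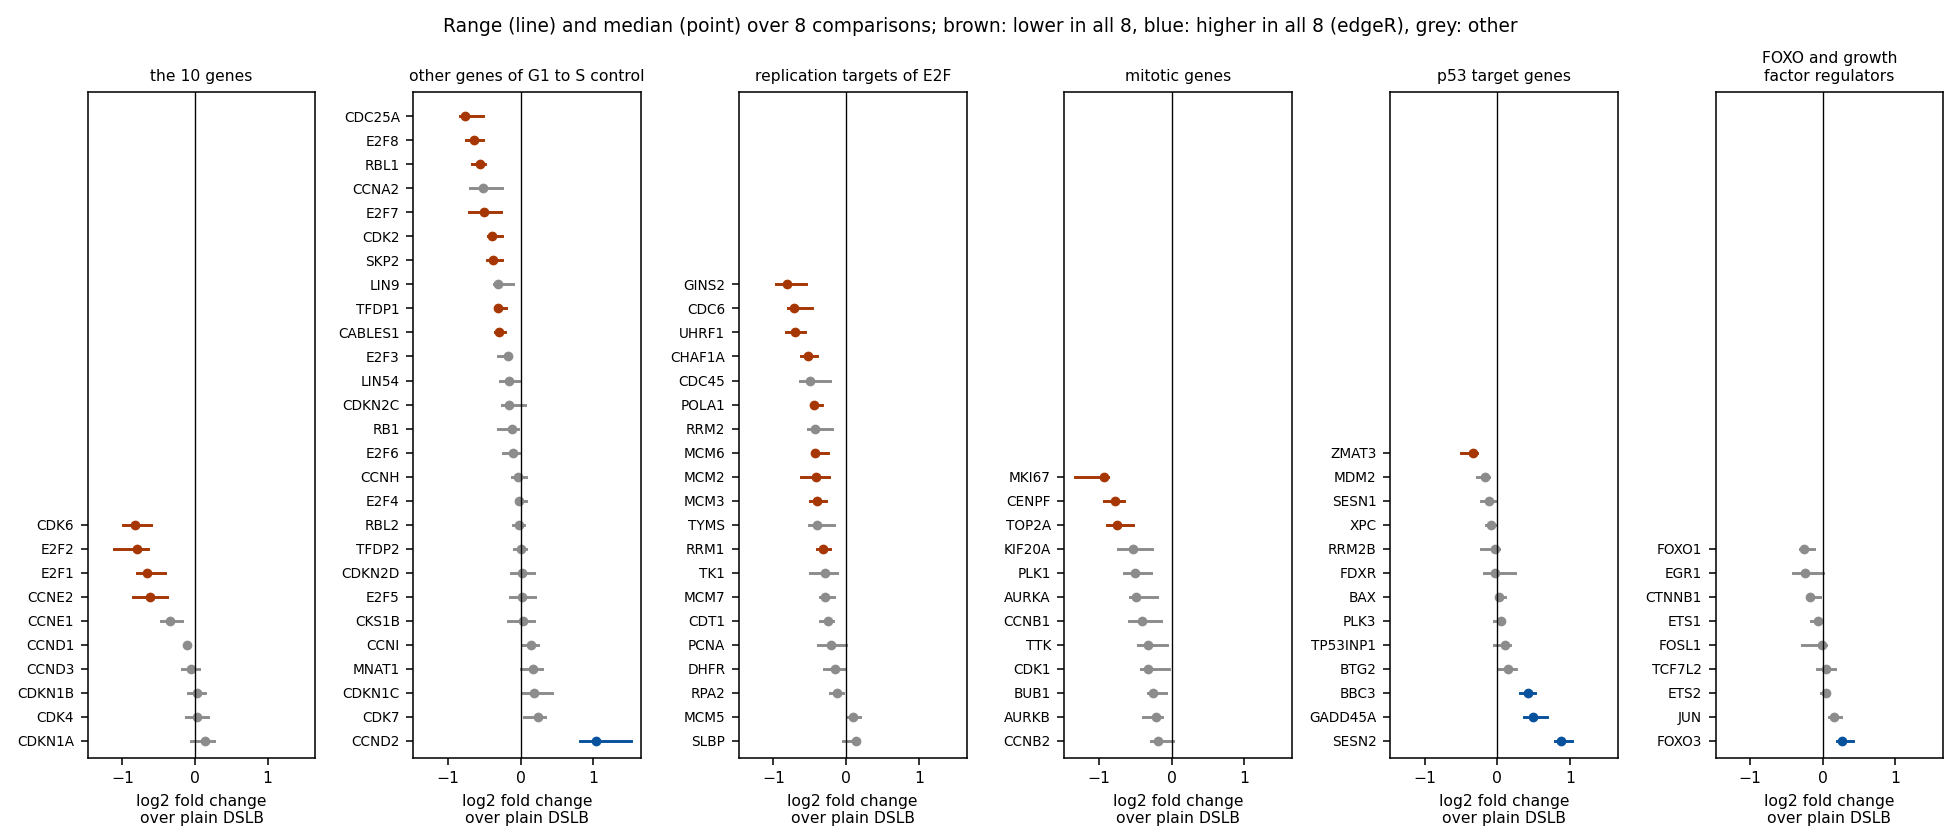
Log2 fold change over plain DSLB hybrids (horizontal axis, edgeR) of the 10 genes and of 5 gene lists, 1 gene a row, with a line from the lowest to the highest of the 8 comparisons and a point at their median. Brown rows fell in all 8 comparisons, blue rows rose in all 8 and grey rows are the others. CDK6, E2F2, E2F1 and CCNE2 are brown among the 10 genes, and CCND2 is the blue row among the other genes of G1 to S control.

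Within conditions some of the 10 genes also varied together from library to library. The libraries with PD-1 and the controls form separate clusters, so the relation was taken over the 30 deviations of log2(CPM + 0.5) from the mean of each condition, for 45 pairs of genes, with 100000 two-sided permutations within conditions and Benjamini-Hochberg adjustment over the pairs. Of the 45 pairs 15 had an adjusted p under 0.05 for Pearson's r, of which 14 were among CDK4, CDK6, CCND3, CCNE1, E2F1 and CDKN1A and 1 was E2F1 with E2F2, and none held CCND1, CCNE2 or CDKN1B. Pairs of other genes were not taken through the same permutations. The count therefore has no share over all genes beside it and cannot be called particular to these 10 genes. Among the kinases and D-type cyclins, r was 0.87 and rho 0.84 for CDK4 with CCND3 (permutation p = 2.00e-05 and 4.00e-05, adjusted 0.0003 and 0.0006). With an E2F factor, r was 0.86 and rho 0.84 for CDK4 with E2F1 (permutation p = 1e-05 and 1e-05, adjusted 0.000225 and 0.00045), where 1e-05 is the smallest p the permutations can give. CDK6 ran the other way, where r was -0.81 and rho -0.80 for CDK4 with CDK6 (permutation p = 1e-05 and 3.00e-05, adjusted 0.000225 and 0.0006). Without the 2 libraries whose CDK4 deviation lay farthest from the median, r was 0.86, 0.83 and -0.84 for these 3 pairs in that order.

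The share of mitochondrial counts moved with these deviations. As a description over the same 30 libraries, r of the deviations with those of the log2 share was 0.68 for CCNE2, 0.61 for CDK6, -0.66 for CCND3, -0.56 for CDK4, -0.17 for CDKN1A and -0.20 for E2F2. It was -0.46 for CCNE1, -0.40 for CDKN1B, -0.39 for CCND1 and -0.38 for E2F1. With the log2 summed count per library it was 0.23 for CDK4, 0.06 for CDK6 and 0.09 for E2F1. The part of the mitochondrial share in the differences between conditions was not tested, and its ranges with PD-1 and in the controls overlapped.

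**Figure D5:**
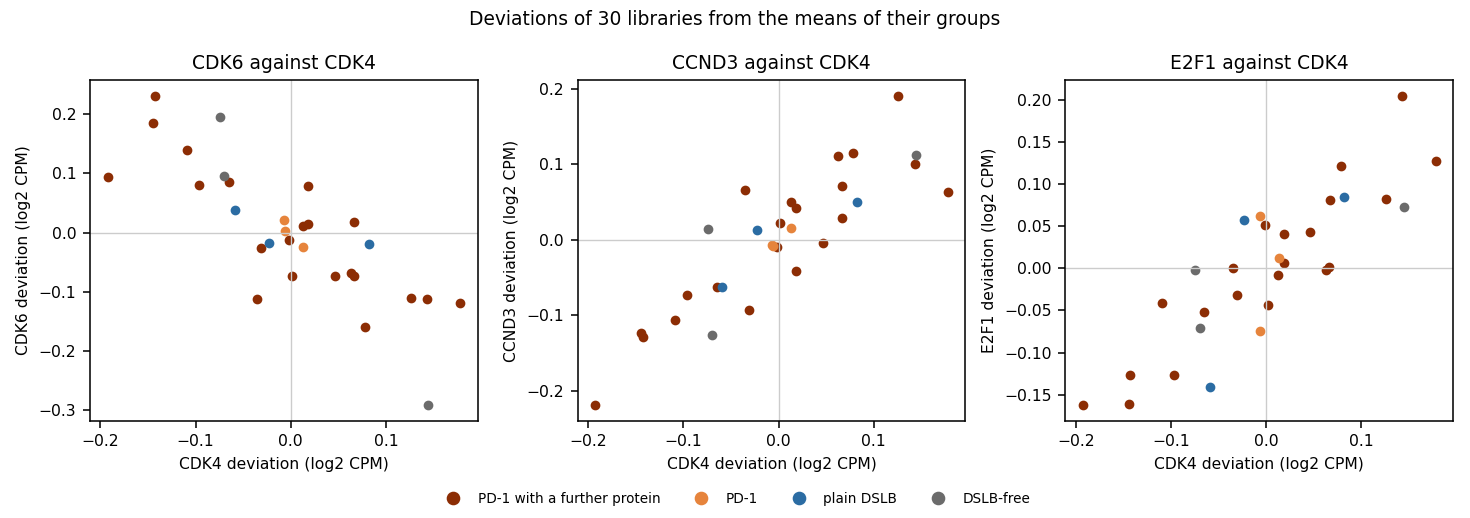
Deviation of each library from the mean of its condition in log2 CPM, for CDK6, CCND3 and E2F1 (vertical axes) against CDK4 (horizontal axes), with 30 points in each panel coloured as PD-1 with a further protein, PD-1, plain DSLB or DSLB-free. CDK6 falls as CDK4 rises (r = -0.81), and CCND3 and E2F1 rise with it (r = 0.87 and 0.86).

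The genes whose log2 CPM followed each member other than CCND1 most closely over the 30 libraries were sought among 13834 genes with a mean of at least 50 counts, by Pearson's r with no p, since much of r comes from the gap between the libraries with PD-1 and the controls. For E2F1 they were E2F2 (0.95), FKBP4 (0.95) and TFDP1 (0.95), and those of E2F2 were E2F1 (0.95), SUSD2 (0.94) and UHRF1 (0.94), so each factor was the other's nearest gene. CCNE1 was closest to E2F1 (0.94), RAMP1 (0.93) and KCNG1 (0.92), and CCNE2 to RRM2 (0.94), FRMD6 (0.93) and FAM111B (0.93), RRM2 being the small subunit of ribonucleotide reductase. CDK6 was closest to UTP20 (0.97), UNC5C (0.97) and PEG10 (0.96). CDK4 was closest to MRPS34 (0.93), GSTP1 (0.93) and ACOT7 (0.93), and CCND3 to SAE1 (0.87), CDKN2C (0.86) and TK1 (0.86). Of the inhibitors CDKN1A was closest to PPP1R14B (0.87), SLC25A10 (0.86) and NAXE (0.86), and CDKN1B to ARPC5 (0.79), ABHD10 (0.74) and ACADM (0.74).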

How the data were processed

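Reads were processed by the authors, who per the labels and the study's methods used FastQC 0.11.2, SAMtools 1.3.1, cutadapt 1.4.1 in Trim Galore 0.3.3, STAR 2.4.0j on hg38 and RSEM 1.2.21, and deposited 1 table per library. Which annotation release RSEM used, and whether counting was stranded, is not given in the sources used here. RSEM's expected counts, the reads the authors estimated for each gene, were deposited without normalization, and TPM was deposited as RSEM scaled it by effective length, which is given in bases. The deposited posterior SD of the counts was not used for any result.

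Expected counts were rounded to whole numbers. Gene symbols came from GENCODE 44 for 56321 of the 60483 identifiers. Genes were filtered with filterByExpr, scaled with TMM and tested with edgeR 4.0.16 (robust quasi-likelihood, 1 mean per condition over all 30 libraries), with Benjamini-Hochberg adjustment over all genes tested and a threshold of 0.05. Summed expected counts of 21.9 M to 60.5 M per library set the precision of each value. Alternatives were DESeq2 1.42.0, limma-voom and log2(TPM + 1) with limma 3.58.1, edgeR on the 6 libraries compared, RLE factors, summed counts, no filter, a mean of at least 100 counts, a replicate block, a threshold of 0.1 and leaving out libraries. DSLB-free tumoroids as the control and removal of a trend on gene length were added after seeing the data. R 4.3.3, Python 3.11.15, numpy 2.4.6, pandas 2.3.3, scipy 1.17.1 and matplotlib 3.10.9 were used.

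The 10 genes and the 5 gene lists were chosen with earlier results of these data known. By rule the 10 genes were named throughout, with listed genes past the test where a member also passed, the 2 most abundant of each list, CDKN2A, and the 3 genes most like each member, which for CCND1 are not reported here.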

Additional observations from a re-analysis of the deposited data

How the results depend on the processing

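Against plain DSLB, 36 of the 41 calls of single genes were kept in every alternative run, and 5 were lost in some, those of CCNE1 in PD-1 and PD-1/LAG3 hybrids, CCNE2 in PD-1/TIGIT hybrids and CDKN1A in PD-1/LAG3 and PD-1/TIGIT hybrids. A kept call could still differ in size. Over the alternatives the log2 fold change of CDK6 ran from -0.83 to -0.43 in PD-1 hybrids (main fit -0.70). In PD-1/TIGIT hybrids it ran from -0.90 to -0.42 (main fit -0.75). No count of called genes changed direction. For PD-1/TIGIT against plain DSLB, edgeR on the 6 libraries compared called 8 of the 10 genes in place of 5, and leaving out 1 library gave 3 (without plain DSLB replicate 2) to 7 (without PD-1/CTLA4 replicate 3). For PD-1/CD2 against PD-1 the count of 1 became 0 with edgeR on the 6 libraries compared, with no filter on low counts, on log2(TPM + 1) with limma and without the 4 libraries that stood apart, while leaving out 1 library gave 0 to 1. With the trend on gene length removed the count was 2, neither of them E2F2. The number of all genes called there was 227, against 533 with DESeq2, 828 with no filter, 8 on log2(TPM + 1) and 6 with edgeR on the 6 libraries. For PD-1/CD27 against PD-1 the count of 0 became 1 with DESeq2, 2 with edgeR on the 6 libraries compared, 1 with no filter, 2 at a threshold of 0.1 and 4 with the gene length trend removed, where all genes called numbered 421, against 783 with DESeq2, 1037 with edgeR on the 6 libraries and 55 without the 4 libraries. For PD-1/CTLA4 against PD-1 the count of 0 became 1 with no filter and 2, CDK6 and CCNE2, without the 4 libraries, where all genes called numbered 8, against 699 with no filter and 1198 without the 4 libraries. The causes of these changes were not tested. The fit with a replicate block gave 1 gene for PD-1/CD2 against PD-1 and changed no count of called members. Between deviations of same-numbered libraries r exceeded 0.1 in 5 of 48 pairs over the 16 comparisons. In 12 of the 48 pairs it was above r with the differently numbered libraries of the reference condition. The pairs share libraries and are not independent. E2F2 rests on 79 to 380 counts per library and CCND2 on 14 to 75.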
